A study of Mus musculus with 4 samples.

Results

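The genes described here carry glucose into the cell, break it down by glycolysis and oxidise its carbon in the citric acid cycle. They were chosen by name from a list of 33 gene symbols, and all 33 had at least 20 unique molecular identifiers (UMIs, each of them 1 captured RNA molecule) over the 4 libraries, out of 17699 genes with that many among 32285 in the files. The list holds 2 glucose transporters, 18 glycolysis genes and 13 citric acid cycle genes. The symbols matched 34 rows, because Aldoa is listed a second time, and the second row with at most 2 UMIs in a library was left out.

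The study compared left ventricle of male wild-type C57BL/6J mice at 2 ages, without injury and after ischemia followed by reperfusion (I/R). Young mice were 3 to 5 months old and aged mice 24 to 26 months old. In the I/R groups the left anterior descending coronary artery was closed for 45 min and the tissue was taken after 24 h of reperfusion. The uninjured groups are titled sham, and their treatment is labelled as healthy with no alteration. Each of the 4 conditions is 1 droplet library made with a kit that counts the 3′ ends of RNA, and where 4 values follow each other below they stand for sham and I/R of young mice and then sham and I/R of aged mice. The labels name nuclear RNA as the molecule, where the study describes single cells, and neither says how many mice a library holds. No transgene or added agent is labelled.

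Glucose enters heart muscle through GLUT4 (Slc2a4), which insulin and contraction bring to the surface, and through the basal carrier GLUT1 (Slc2a1). Hexokinase traps it, phosphofructokinase commits it to glycolysis under control of fructose 2,6-bisphosphate, and pyruvate is either reduced to lactate or oxidised in the mitochondrion. The adult heart takes most of its energy from fatty acids and leans on glycolysis when oxygen is short, and the hypoxia-inducible factors are known to act on several glycolysis genes through a short DNA element with the core ACGTG.

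Because that element is known from these genes, promoters of 3 members that differed by 1.5-fold or more after I/R are shown here. They are a selection: Pfkfb1, Pfkfb2, Suclg2 and Pgam2 differed by that much too, on both scales described below, and are not shown. Of these only Pfkfb2 held ACGTG in a promoter window, and Pfkfb1, Suclg2 and Pgam2 did not. The 3 members shown did not share a direction at both ages. Their log2 ratios to sham, described below, were 0.96 in young and 0.55 in aged I/R for Slc2a1. They were 0.59 and -0.25 for Pgk1 and -1.16 and 1.05 for Hk2. Those of Pfkfb2 were -2.26 and 0.62. The promoters shown cover 250 bases before the start of transcription in RefSeq on GRCm38. The bases run 5′ to 3′ on the strand of the gene, with ACGTG or its reverse complement in capitals in the promoters. The promoters are those of Slc2a1 at chr4:119108495-119108744 on the plus strand, Pgk1 at chrX:106186850-106187099 on the plus strand, and Hk2 at chr6:82774455-82774704 on the minus strand.
Slc2a1: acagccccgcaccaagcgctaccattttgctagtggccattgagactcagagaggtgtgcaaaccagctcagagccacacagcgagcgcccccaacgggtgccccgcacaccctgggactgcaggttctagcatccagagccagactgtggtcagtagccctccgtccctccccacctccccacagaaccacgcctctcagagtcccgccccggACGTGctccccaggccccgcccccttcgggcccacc
Pgk1: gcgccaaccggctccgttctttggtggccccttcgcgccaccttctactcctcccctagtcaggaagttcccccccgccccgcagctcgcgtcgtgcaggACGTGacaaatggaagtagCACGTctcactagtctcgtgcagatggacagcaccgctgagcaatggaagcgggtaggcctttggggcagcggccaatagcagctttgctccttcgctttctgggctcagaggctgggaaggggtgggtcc
Hk2: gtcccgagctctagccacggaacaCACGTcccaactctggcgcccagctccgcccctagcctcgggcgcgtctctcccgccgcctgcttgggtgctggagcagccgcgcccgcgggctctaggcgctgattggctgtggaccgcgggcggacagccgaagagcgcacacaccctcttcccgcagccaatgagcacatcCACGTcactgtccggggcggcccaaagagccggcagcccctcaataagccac
The Slc2a1 stretch shown held 1 such stretch, starting 36 bases before the start of transcription. The Pgk1 window held 2, starting 150.0 and 131 bases before it, and the Hk2 window 2, starting 226 and 52 bases before it. RefSeq windows of 250 bases before to 50 after the start were found for 31 members (Slc2a4 and Idh3a were not matched), and 14 of these 31 genes (45.2%) held ACGTG on either strand in at least 1 window, against 21.8% of all 27025 genes. By role these were 10 of 18 glycolysis genes, 3 of 12 citric acid cycle genes and Slc2a1. Counted by window, 43.1% of the 51 member windows and 19.6% of all 32851 windows held it. The other motifs searched, on both strands and with overlaps allowed, were CCAAT (58.1% of member genes against 41.1% of all genes), GGGCGG (71.0% against 38.2%), CANNTG (80.6% against 75.0%), which includes CACGTG and so can overlap ACGTG, and AAGGTCA (12.9% against 5.38%). A match is a run of letters and not a measured site.

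The libraries held 25836175, 39673199, 41356670 and 66767829 UMIs in that order, on 92200, 102883, 100342 and 91124 barcodes with a median of 244, 374, 391 and 675 UMIs. Between 2366 and 2843 barcode sequences were shared by any pair of libraries. All 18 cardiomyocyte markers were present in every library and took 85300 to 112389 counts per 1000000 UMIs (CPM), against 1917 to 2286 for 18 endothelial, 1277 to 2173 for 18 fibroblast, 375 to 716 for 18 macrophage, 581 to 783 for 8 mural and 1025 to 2567 for 5 erythroid markers. The 6 neutrophil markers summed to 14.2 and 23.2 CPM in young and aged sham and to 95.6 and 95.8 CPM in young and aged I/R. Young sham stood apart in nuclear RNA: 4 RNAs that stay in the nucleus (Malat1, Neat1, Meg3 and Kcnq1ot1) took 77089 CPM there and 24975, 31789 and 46515 CPM in the other libraries.

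With 1 library per condition there is no test, so differences are given as log2 ratios of CPM with exact 95% intervals that cover counting error only. Since the sums mix all cells of the ventricle, fewer cells of a type and less RNA per cell cannot be told apart. The median log2 ratio of the 11881 genes with at least 50 UMIs in every library was not 0: it was -0.44 for young I/R over young sham, 0.08 for aged I/R over aged sham, -0.14 for aged over young sham and 0.39 for aged over young I/R. A ratio minus this median is called the relative log2 ratio below, and a member is called higher or lower without further words only where it passed 1.5-fold in the same direction on both scales.

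**Figure D1:**
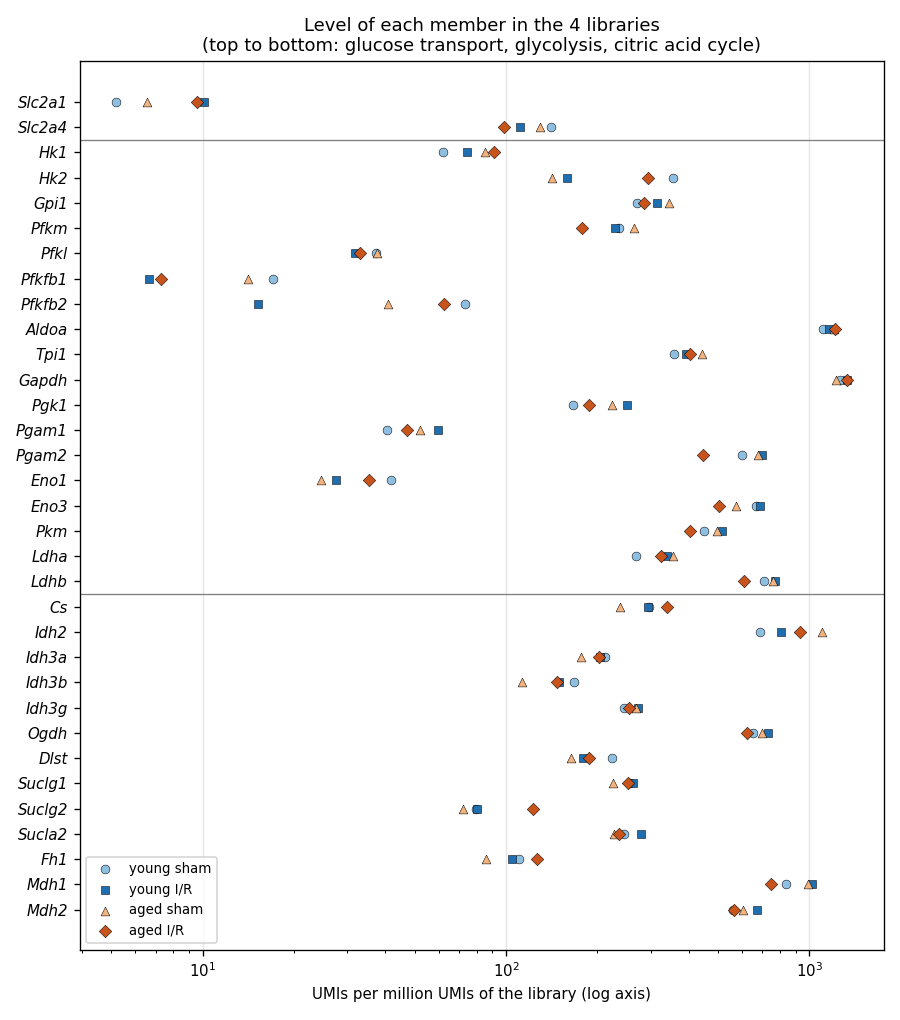
CPM (log axis) for each of the 33 members, with 1 point per library and no error bars. Slc2a1 lies between 5.19 and 10.1 CPM and Gapdh between 1222 and 1332, and the points of Hk2, Pfkfb1 and Pfkfb2 spread more widely than those of most other members.

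Over all barcodes the 33 genes together took nearly the same share of the UMIs in every library. It was 1.14% and 1.22% in sham and I/R of young mice and 1.21% and 1.13% in those of aged mice. The 18 glycolysis genes summed to 6702, 7060, 6959 and 6457 CPM, the 13 citric acid cycle genes to 4567, 5054, 4957 and 4735 CPM, and both transporters together to 146, 122, 136 and 108 CPM. Single genes differed more than these sums. In barcodes with 3 to 5% nuclear RNA, described below, the 33 genes summed to 13089, 11545, 11563 and 11599 CPM, highest in young sham. The near-equal shares thus depend on which barcodes are summed. The totals also differed in make-up. Mitochondrial genes took 10.0%, 14.1%, 15.6% and 10.0% of the UMIs and Gm42418 took 11.5%, 19.4%, 14.0% and 13.8%.

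In young I/R over young sham the median log2 ratio was 0.10 for glycolysis and 0.03 for the citric acid cycle, when the median of all 17699 genes was -0.53. All 13 cycle genes and 14 of 18 glycolysis genes lay above that median. On the CPM scale 2 of 33 members were 1.5-fold or more higher (6.06%, where 8.03% of all genes were) and 4 were 1.5-fold or more lower (12.1%, where 47.5% of all genes were). On the relative scale 13 members were higher (39.4%, against 18.5% of all genes) and 3 lower (9.09%, against 28.5%). The members that passed on both scales were Slc2a1 and Pgk1, which were higher, and Hk2, Pfkfb1 and Pfkfb2, which were lower.

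When aged I/R was set against aged sham, the median was -0.16 for glycolysis and 0.16 for the citric acid cycle, with 0.09 for all genes. On the CPM scale 3 members were higher (9.09%, against 17.6% of all genes) and 2 lower (6.06%, against 10.6%). On the relative scale 2 were higher (6.06%, against 14.6%) and 3 lower (9.09%, against 13.3%). On both scales Hk2 and Suclg2 were higher and Pfkfb1 and Pgam2 lower. Only Pfkfb1 passed in the same direction at both ages on both scales, and Hk2 passed in opposite directions.

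**Figure D2:**
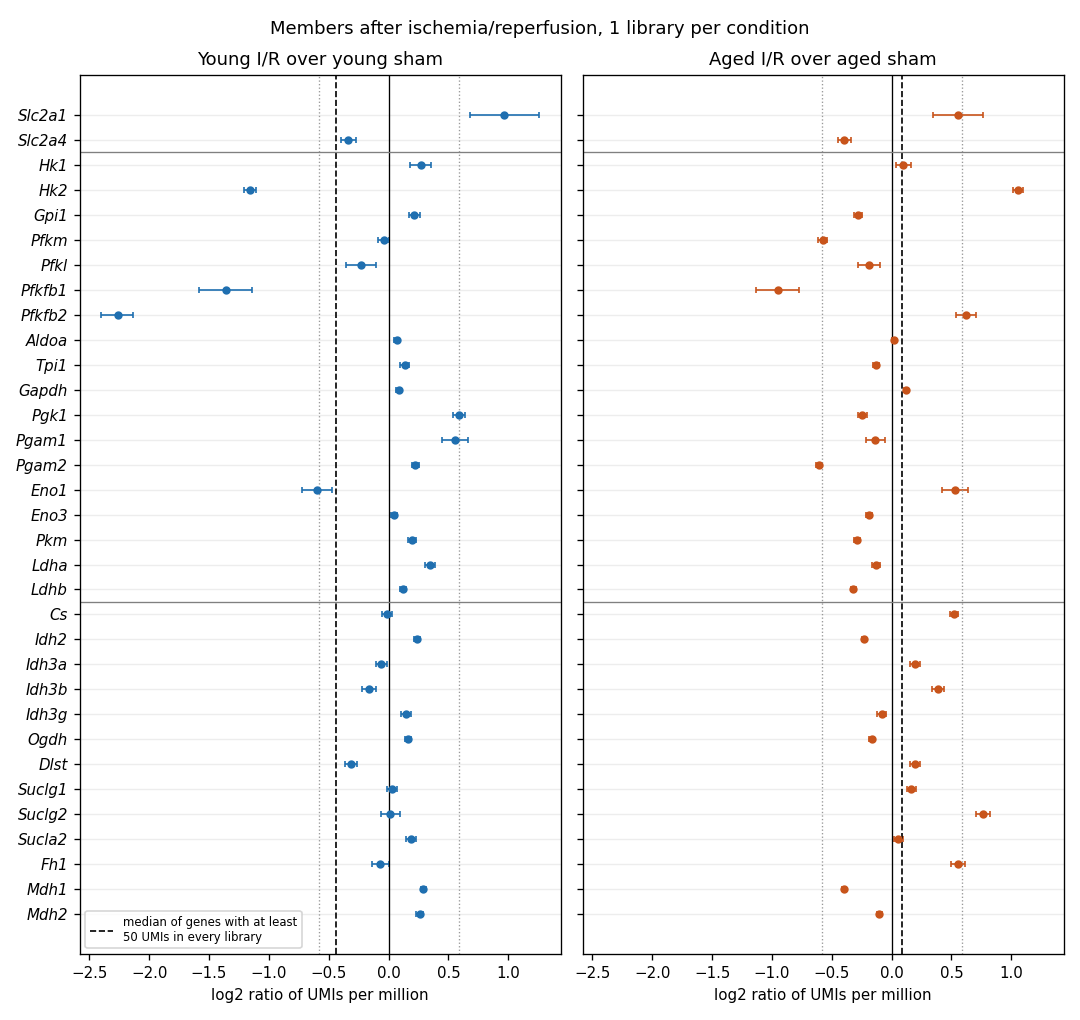
Log2 ratio of CPM after I/R for each member, young at left and aged at right, with bars for the exact 95% interval of counting error, a dashed line at the median of genes with at least 50 UMIs in every library and dotted lines at 1.5-fold. Most young points lie to the right of the dashed line at -0.44, and Hk2 lies at -1.16 at left and 1.05 at right.

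The transporters differed in direction after I/R on the CPM scale. Slc2a1 (GLUT1, chromosome 4, 119108711 to 119137983) was at 5.19 and 10.1 CPM in sham and I/R of young mice and at 6.55 and 9.60 CPM in those of aged mice, from 134, 401, 271 and 641 UMIs. Both I/R libraries were above both sham libraries, and the exact 95% Poisson intervals of the I/R libraries (9.14 to 11.1 and 8.87 to 10.4) did not reach those of the sham libraries (4.35 to 6.14 and 5.80 to 7.38). The neutrophil markers were high in the same pair of libraries, and their part in the Slc2a1 values was not tested. The log2 ratio was 0.96 (0.68 to 1.26) in young and 0.55 (0.34 to 0.76) in aged ventricle, the latter short of 1.5-fold. Slc2a4 (GLUT4, chromosome 11, 69942539 to 69948188) was at 141, 112, 130.0 and 98.7 CPM, lower in both I/R libraries, with log2 ratios of -0.34 (-0.40 to -0.27) and -0.40 (-0.45 to -0.34). The young value was 0.10 on the relative scale, so its direction depends on the scale. The share of Slc2a4 among the UMIs of both, which no scaling alters, went from 96.4% (95.8 to 97.0, exact binomial) to 91.7% (90.9 to 92.5) in young and from 95.2% (94.6 to 95.7) to 91.1% (90.5 to 91.8) in aged ventricle.

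Hk2 (hexokinase 2, the insulin-responsive form that binds mitochondria, chromosome 6, 82725025 to 82774454) was at 354 CPM in sham and 159 after I/R in young mice, and at 141 and 293 CPM in aged mice. Young sham and aged I/R were the high libraries, and young I/R and aged sham the low ones. The log2 ratio after I/R was -1.16 (-1.20 to -1.11) in young and 1.05 (1.01 to 1.09) in aged ventricle, and aged sham was below young sham by 1.32 on the log2 scale (log2 ratio -1.32, -1.37 to -1.28). Hk1, the constitutive hexokinase of most tissues, was at 61.7, 74.3, 85.1 and 91.1 CPM. No Hk1 ratio reached 1.5-fold on the CPM scale, and the highest, 0.46 for aged over young sham, was 0.60 on the relative scale. Hk2 made up 85.1% (84.5 to 85.8) of the UMIs of both hexokinases in young sham and 68.1% (67.1 to 69.0) after I/R, against 62.4% (61.4 to 63.4) and 76.3% (75.8 to 76.8) in aged mice.

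The enzymes that set fructose 2,6-bisphosphate, the strongest activator of phosphofructokinase, varied more than phosphofructokinase itself. Pfkfb2, the heart form of this bifunctional kinase and phosphatase (chromosome 1, 130689182 to 130729253), was at 73.3, 15.2, 40.7 and 62.6 CPM. The low value was in young I/R, with a log2 ratio of -2.26 (-2.40 to -2.13) to young sham, the lowest of all members. In aged ventricle the ratio was 0.62 (0.54 to 0.70), which falls to 0.54 on the relative scale, and aged I/R was 2.04 (1.91 to 2.16) above young I/R. Pfkfb1, the form known from liver and skeletal muscle (chromosome X, 150588229 to 150643878), was at 17.1, 6.65, 14.1 and 7.29 CPM and was lower in both I/R libraries. Its log2 ratios after I/R were -1.36 (-1.59 to -1.14) in young and -0.95 (-1.13 to -0.78) in aged ventricle. The share of Pfkfb2 among both moved from 81.1% (79.4 to 82.6) to 69.6% (66.4 to 72.7) in young and from 74.3% (72.4 to 76.0) to 89.6% (88.6 to 90.4) in aged ventricle.

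The phosphofructokinase members Pfkm and Pfkl differed little after I/R in young ventricle by CPM. Pfkm, the muscle subunit, was at 236, 229, 265 and 177 CPM. The log2 ratio to aged sham in aged I/R, -0.58 (-0.61 to -0.54), was just inside 1.5-fold and was -0.66 on the relative scale. Pfkl, the liver subunit, stayed between 31.8 and 37.6 CPM. The share of Pfkm among Pfkm and Pfkl was 86.4% (85.5 to 87.1), 87.8% (87.2 to 88.5), 87.6% (87.0 to 88.1) and 84.3% (83.7 to 84.9). This share leaves out Pfkp, a further phosphofructokinase gene that is not a member, at 65.5, 86.8, 65.6 and 71.5 CPM. The young I/R ratio of Pfkp was 0.41 (0.32 to 0.49), and 0.84 on the relative scale. Gpi1, the isomerase between hexokinase and phosphofructokinase, was at 270, 313, 345 and 284 CPM, and Hk1, Gpi1, Pfkl and Pfkm all lay within 1.5-fold on the CPM scale in all 4 comparisons.

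Pgk1, phosphoglycerate kinase and the first ATP-forming step (chromosome X, 106187100 to 106203699), was at 166, 250.5, 223 and 188 CPM. It was highest in young I/R, with a log2 ratio of 0.59 (0.54 to 0.64), and in aged I/R the ratio was -0.25 (-0.29 to -0.21). Pgam1, the mutase of brain and other tissues, was at 40.6, 59.6, 52.0 and 47.3 CPM and just missed 1.5-fold in young I/R at 0.55. Pgam2, the muscle mutase (chromosome 11, 5801640 to 5803733), was at 598, 698, 679 and 444 CPM. Aged I/R was the low library for it, with a log2 ratio of -0.61 (-0.63 to -0.59) to aged sham and -0.65 (-0.68 to -0.63) to young I/R. The share of Pgam2 among both mutases was lower after I/R at both ages, from 93.6% (93.3 to 94.0) to 92.1% (91.8 to 92.4) and from 92.9% (92.6 to 93.2) to 90.4% (90.1 to 90.7).

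Gapdh, often used as a reference gene, was at 1256, 1332, 1222 and 1331 CPM, a range of log2 ratios from -0.04 to 0.12 over the 4 comparisons, though the young I/R value was 0.52 on the relative scale. Aldoa, the muscle aldolase, was at 1105, 1159, 1201 and 1217 CPM, and Tpi1, triosephosphate isomerase, at 358, 393, 444 and 405 CPM. Eno3, the muscle enolase, was at 666, 688, 574 and 503 CPM. Eno1, the ubiquitous enolase, was at 41.7, 27.5, 24.5 and 35.4 CPM, and was lower in aged than in young sham with a log2 ratio of -0.77 (-0.89 to -0.64). Its young I/R ratio of -0.60 (-0.72 to -0.48) passed 1.5-fold on the CPM scale but was -0.16 on the relative scale. Eno1 has a near-identical copy, Eno1b, counted at 1.36 to 2.22 CPM, so its values are uncertain. The share of Eno3 among Eno3 and Eno1 was 94.1% (93.8 to 94.4), 96.2% (95.9 to 96.4), 95.9% (95.7 to 96.2) and 93.4% (93.2 to 93.7).

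At the end of the pathway Pkm, pyruvate kinase, was at 448, 514, 496 and 405 CPM. Its spliced forms cannot be told apart in 3′ counts. Lactate dehydrogenase A, the form that favours lactate production (Ldha), was at 268, 340, 354 and 324 CPM, lowest in young sham. Ldhb, the heart form that favours lactate use, was at 707, 770, 760 and 609 CPM, lowest in aged I/R. The share of Ldhb differed in all 4 libraries, at 72.5% (72.0 to 73.1), 69.4% (68.9 to 69.8), 68.2% (67.8 to 68.6) and 65.3% (64.9 to 65.7), and no intervals overlapped. Over all barcodes the change with I/R was of like size at both ages, -3.19 percentage points in young and -2.92 in aged ventricle. Barcodes with 3 to 5% nuclear RNA, described below, differed. There the log2 ratio after I/R was -0.27 for Ldhb and 0.13 for Ldha in young ventricle. In aged ventricle it was -0.18 and -0.02, so the change was not of like size there. Ldhb and Ldha there were at 704 and 339 CPM in young I/R, near the 711 and 344 CPM of aged sham.

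Of the 9 pairs of related genes, 3 moved the same way after I/R at both ages with intervals that did not overlap: the shares of Slc2a4, Pgam2 and Ldhb, the forms of muscle or heart, were all lower. In the other 6 pairs the shares moved in opposite directions at the 2 ages, by less than counting error for Mdh2 in young ventricle. These 6 include Eno3, Pfkm and Pfkfb2, also forms of muscle or heart. The shares of Eno3 and Pfkm were higher in young I/R and lower in aged I/R. That of Pfkfb2 was lower in young I/R and higher in aged I/R. A lower share after I/R was thus not common to all forms of muscle or heart. These shares compare a pair between libraries, and how well each gene of a pair is captured cancels only in that comparison.

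**Figure D3:**
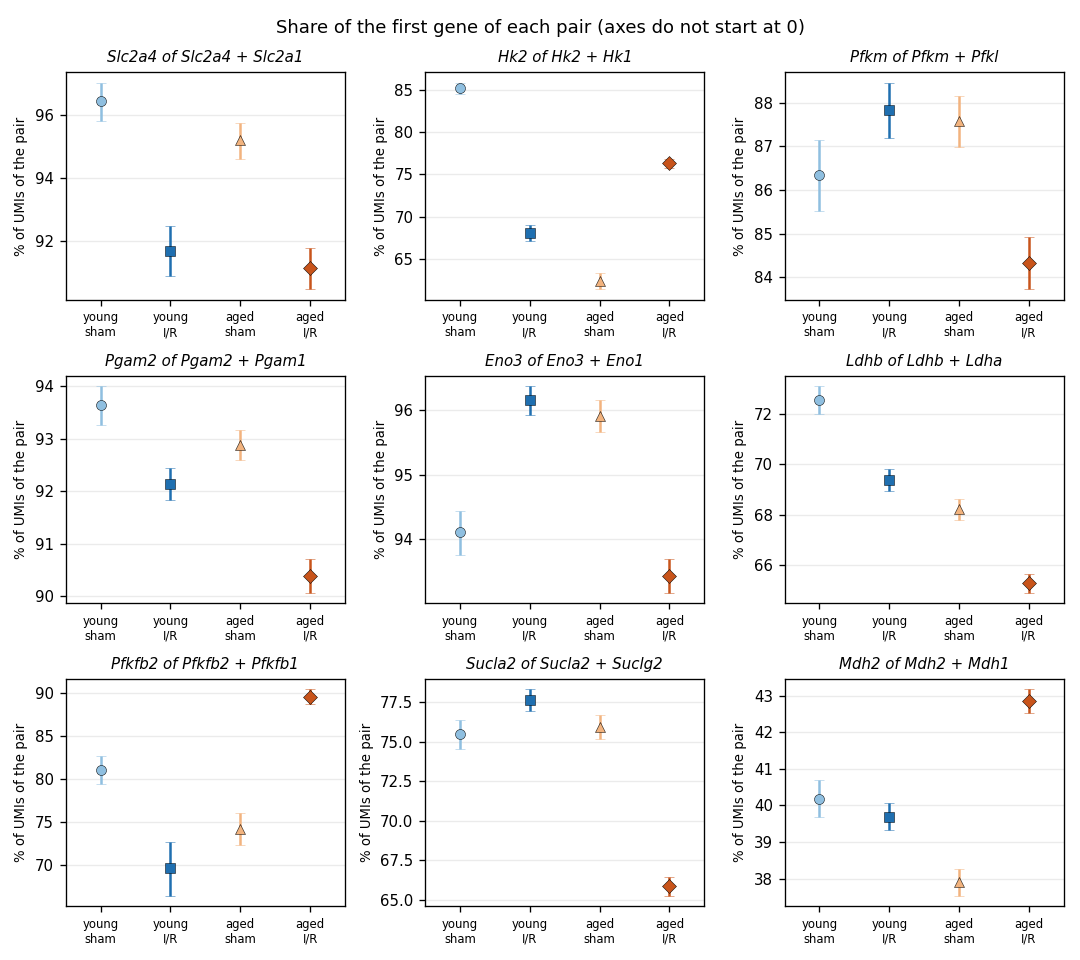
Share of the first gene among the UMIs of each of 9 pairs of related genes, in percent, with exact 95% binomial intervals and 1 point per library (axes do not start at 0). Slc2a4, Pgam2 and Ldhb have lower shares after I/R at both ages, while Hk2 and Pfkfb2 have lower shares in young I/R and higher shares in aged I/R.

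In the citric acid cycle no member passed 1.5-fold in young I/R on the CPM scale. On the relative scale 5 of 13 (38.5%) were higher by that much, where 18.5% of all genes were. Idh2 is the NADP-dependent isocitrate dehydrogenase of mitochondria, which supplies reducing power against peroxides (chromosome 7, 80094846 to 80115392). It was the only cycle member past 1.5-fold on both scales in aged over young sham. It was at 685, 808, 1096 and 933 CPM. Aged sham was 0.68 (0.65 to 0.70) above young sham on the log2 scale, and both aged libraries were above both young ones by CPM. The aged over young I/R ratio of 0.21 turned to -0.18 on the relative scale. The NAD-dependent isocitrate dehydrogenase, the rate-limiting complex of the cycle, did not share this order: Idh3a was at 212, 204, 176 and 202 CPM and Idh3b at 168, 149, 113 and 147 CPM, both lowest in aged sham, while Idh3g stayed between 246 and 272 CPM. The aged over young sham ratio of Idh3b was -0.57 (-0.63 to -0.51), just inside 1.5-fold, and -0.43 on the relative scale.

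Succinyl-CoA ligase has a shared subunit (Suclg1) and a partner that makes it form ATP (Sucla2) or GTP (Suclg2). Suclg2 (chromosome 6, 95473009 to 95718800) was at 79.6, 80.4, 72.1 and 122 CPM, and by CPM was high in aged I/R alone. Its log2 ratio to aged sham was 0.76 (0.70 to 0.83). On the relative scale its ratio after I/R was 0.45 in young and 0.68 in aged ventricle. Sucla2 was at 245, 279, 227 and 236 CPM and Suclg1 at 257, 262, 226 and 253 CPM, both within 1.5-fold in all comparisons on the CPM scale. The share of Sucla2 among both partners was 75.5% (74.5 to 76.4), 77.6% (76.9 to 78.3) and 75.9% (75.2 to 76.7) in the first 3 libraries and 65.9% (65.3 to 66.5) in aged I/R.

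By CPM, Cs and Fh1 resembled Suclg2 in aged I/R without reaching 1.5-fold. Cs, citrate synthase, which opens the cycle, was at 295, 293, 237 and 340 CPM with a log2 ratio of 0.52 (0.49 to 0.56). Fh1, fumarase, was at 110, 105, 86.1 and 126 CPM with 0.56 (0.50 to 0.61). On the relative scale the ratios in young and aged I/R were 0.42 and 0.44 for Cs and 0.37 and 0.47 for Fh1. Of the 2-oxoglutarate dehydrogenase complex, Ogdh was at 651, 729, 699 and 623 CPM and Dlst at 223, 179, 164 and 188 CPM. The malate dehydrogenases differ in compartment: Mdh1 of the cytosol was at 834, 1021, 989 and 749 CPM and Mdh2 of the mitochondrion at 561, 672, 604 and 562 CPM. Mdh1 was lowest in aged I/R, with a log2 ratio of -0.40 (-0.42 to -0.38) to aged sham, and the share of Mdh2 there was 42.9% (42.5 to 43.2), above 40.2% (39.7 to 40.7), 39.7% (39.3 to 40.1) and 37.9% (37.5 to 38.3) in the other libraries.

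With age alone, in aged over young sham, the median log2 ratio was 0.13 for glycolysis, -0.14 for the citric acid cycle and -0.14 for all genes. On the CPM scale 1 member was higher (3.03%, against 11.3% of all genes) and 3 were lower (9.09%, against 21.4%). On the relative scale 2 were higher (6.06%, against 15.3%) and 3 lower (9.09%, against 15.4%). Idh2 was higher and Hk2, Pfkfb2 and Eno1 were lower on both scales. This comparison shares its young sham library with the young I/R comparison and its aged sham library with the aged I/R comparison, so a high or low value in a sham library enters both.

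In aged over young I/R the medians were -0.04 for glycolysis and -0.02 for the cycle, when the median of all genes was 0.48. On the CPM scale 3 members were higher (9.09%, against 43.4% of all genes) and 1 lower (3.03%, against 5.07%). On the relative scale 1 was higher (3.03%, against 23.8%) and 11 lower (33.3%, against 14.1%). Pfkfb2 was higher and Pgam2 lower on both scales. Hk2 was 0.89 higher on the log2 scale and 0.50 on the relative scale.

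Because nuclear RNA differed between libraries, the members were also compared between barcodes of 1 library. The 25% of barcodes with the largest share of the 4 nuclear RNAs were set against the 25% with the smallest. The 2 ends also differed in depth, with a median of 339, 399, 468 and 869 UMIs in the richest and 219, 338, 331 and 606 in the poorest. The median log2 ratio of the members was -0.53, -0.17, -0.24 and -0.33, where the median of all genes was 0.22, 0.09, 0.16 and 0.03. Between 24 and 25 of the 33 members were lower in nuclear-rich barcodes beyond counting error in each library. The same count was not taken over all genes, and counting error is small for genes as deeply counted as most members. Pfkfb1 and Pfkfb2 went the other way in every library, Pfkfb1 by 1.37, 0.91, 0.89 and 0.53 and Pfkfb2 by 1.69, 1.03, 0.79 and 0.64. Hk2 did so in 3 libraries, at 0.78 in young sham, 0.18 in young I/R and 0.21 in aged sham, but not in aged I/R at -0.04, and Eno1 at 0.83 in young sham. Hk2, Pfkfb1, Pfkfb2 and Eno1 are also the members that were lower in young I/R, aged sham or both than in young sham, the library with the most nuclear RNA. Whether the 2 observations are linked was not tested. Hk2 was also higher in aged I/R than in aged sham, with a log2 ratio of 1.05. Aged I/R also held more nuclear RNA than aged sham, 46515 against 31789 CPM. From most to least nuclear RNA the libraries were young sham, aged I/R, aged sham and young I/R. In that order Pfkfb2 was at 73.3, 62.6, 40.7 and 15.2 CPM. Hk2 was at 354, 293, 141 and 159 CPM and Eno1 at 41.7, 35.4, 24.5 and 27.5 CPM. Pfkfb1, at 17.1, 7.29, 14.1 and 6.65 CPM, did not fall in that order. A link was not tested.

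**Figure D4:**
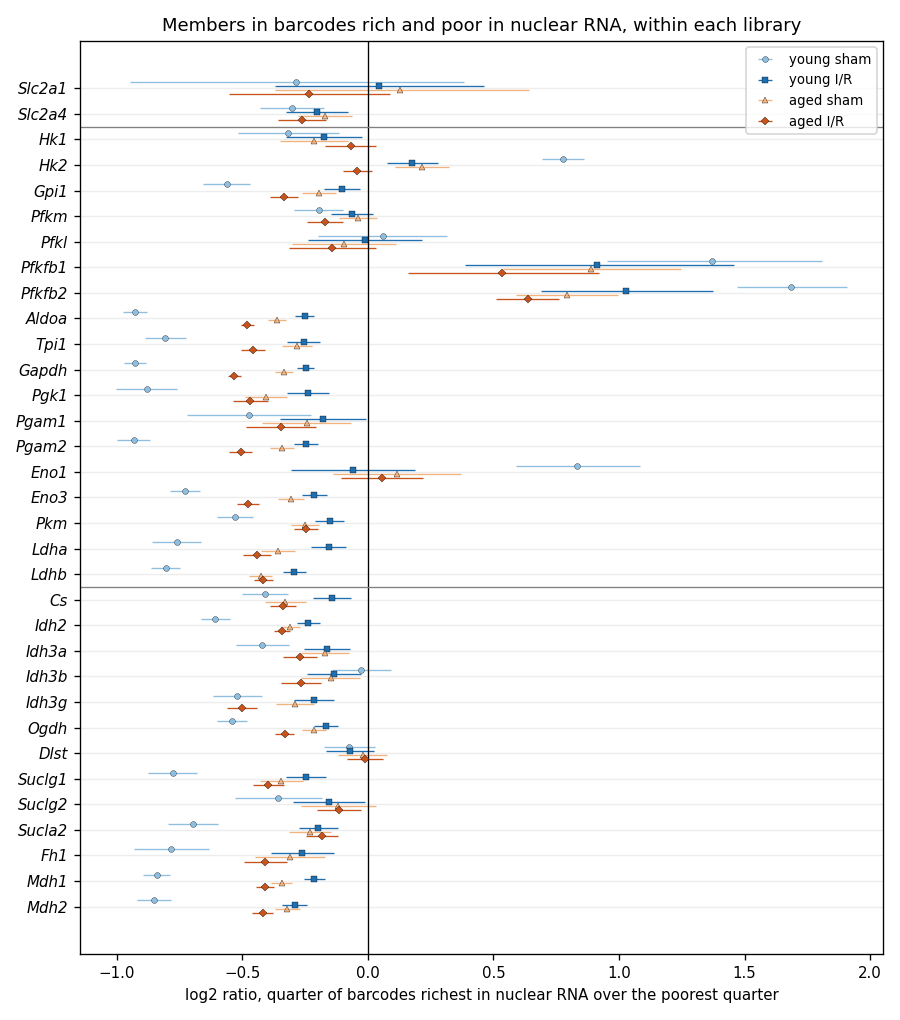
Log2 ratio of each member between the 25% of barcodes richest in nuclear RNA and the 25% poorest, within each library, with exact 95% intervals of counting error. Pfkfb1 and Pfkfb2 lie to the right of 0 in all 4 libraries, Hk2 in 3, and most other members lie to the left.

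Values were therefore also taken from barcodes of like nuclear content, those with 3 to 5% nuclear RNA: 27435, 14561, 22991 and 44939 by library. They are different parts of each library. The median share over all barcodes was 5.52%, 1.99%, 2.38% and 3.80%. The window lay below the median of young sham and above the upper quartile of young I/R, 2.71%. Its barcodes had a median of 222, 386, 427 and 646 UMIs, so each share rests on few UMIs. In these barcodes Hk2 was at 266, 155, 135 and 291 CPM, so that the log2 ratio after I/R was -0.78 in young and 1.11 in aged ventricle. The young value was -0.55 on the relative scale, short of 1.5-fold, and the aged one 1.05. In aged over young sham the log2 ratio of Hk2 was -0.98, still past 1.5-fold. Pfkfb2 was at 48.8, 19.8, 40.1 and 56.5 CPM, with ratios of -1.30 and 0.50, and its difference between young and aged sham shrank from -0.85 to -0.28. Pfkfb1 was at 11.6, 8.80, 14.9 and 6.92 CPM, and its young I/R ratio of -0.40 no longer reached 1.5-fold while the aged one of -1.11 did.

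Slc2a1 was nearly unaltered by this choice, at 4.97, 9.84, 6.39 and 10.1 CPM with ratios of 0.98 and 0.65, both past 1.5-fold. Suclg2 in aged I/R over aged sham was at 0.77, past 1.5-fold as before. Pgam2 in the same comparison was at -0.49 and Idh2 in aged over young sham at 0.41, both now under 1.5-fold. Eno1 in aged over young sham was at -0.43, also under it, while Cs and Fh1 in aged I/R over aged sham were at 0.59 and 0.64, past 1.5-fold by CPM but at 0.53 and 0.58 on the relative scale. In aged over young sham Fh1 was at -0.62, past 1.5-fold by CPM but at -0.57 on the relative scale. By CPM Idh3b (-0.57), Dlst (-0.52), Idh3a (-0.51), Cs (-0.50) and Suclg1 (-0.49) were also further from 0 in that comparison than Idh2. Pgk1 in young I/R was at 0.27, under 1.5-fold. The young I/R medians turned to -0.21 for glycolysis and -0.18 for the citric acid cycle, with -0.35 for all genes, so that the direction of the 2 groups in young I/R depends on which barcodes are summed. In aged I/R the cycle median stayed above 0, at 0.23.

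**Figure D5:**
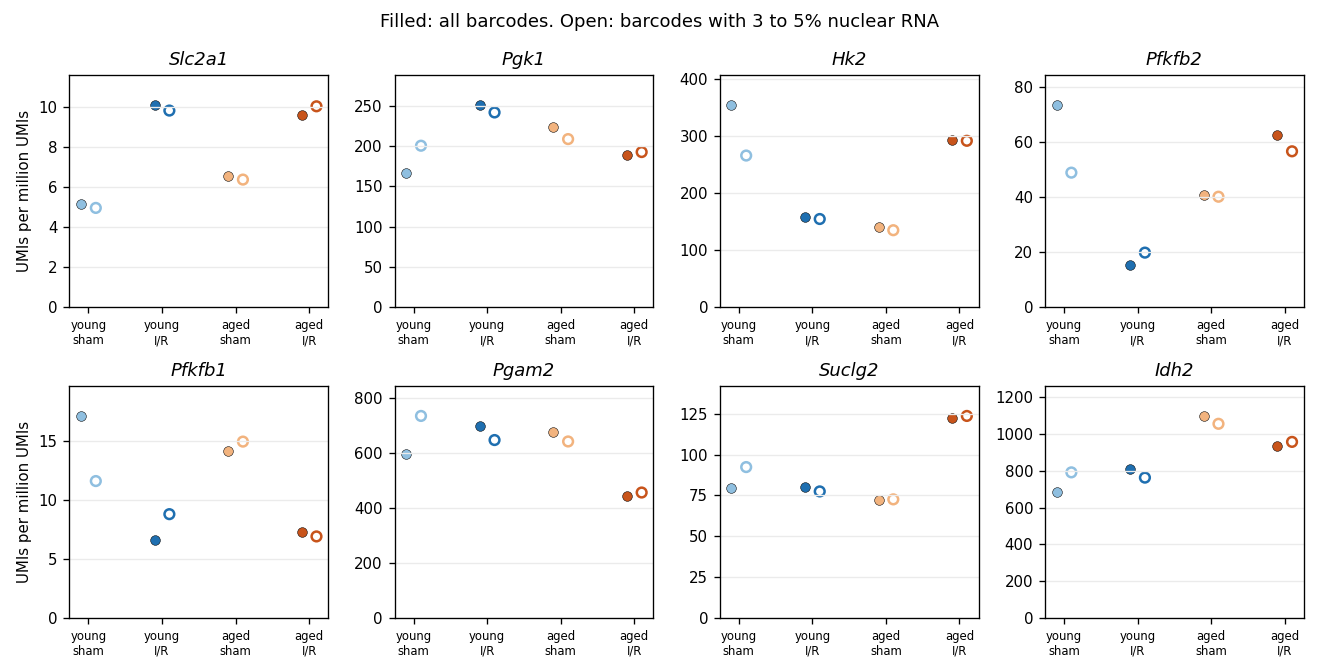
CPM (axes start at 0) of 8 members in each library, from all barcodes (filled) and from barcodes with 3 to 5% nuclear RNA (open), with no error bars. Hk2 in young sham is at 354 filled and 266 open, and Slc2a1 differs little between filled and open points.

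The labels name cardiomyocytes, endothelial cells, fibroblasts and macrophages, and barcodes were checked for such differences in the members. In barcodes with at least 3 UMIs of endothelial markers (2955, 4843, 8216 and 20375 by library), the median log2 ratio of the members to all other barcodes was 0.00, -0.01, -0.04 and 0.00. With fibroblast markers it was -0.08, -0.03, -0.04 and -0.03. Where every second endothelial marker was used to pick barcodes, the remaining endothelial markers were only 1.03 to 1.18 times as frequent in them as elsewhere, so these barcodes were hardly richer in that cell type. The same figure was 1.14 to 1.45 for fibroblast, 1.27 to 2.45 for macrophage and 2.19 to 24.7 for erythroid markers. In barcodes with at least 3 macrophage UMIs (156, 83, 620 and 1711) the median log2 ratio, over the 12, 10, 26 and 31 members with at least 20 UMIs there, was -0.13, 0.01, -0.08 and -0.01. In those with at least 3 erythroid UMIs it was 0.00, 0.01, -0.02 and 0.06. The members were not assigned to cell types here.

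The wider pathway gave 61 more genes, of which 13 of 13 transport, 17 of 23 glycolysis and 25 of 25 citric acid cycle genes had at least 20 UMIs. Hkdc1, Aldoc, Pgk2, Gapdhs, Pklr and Ldhc, known from other tissues, did not. In young I/R, 1 transport gene was higher and 4 lower on both scales, 2 glycolysis genes were higher and 1 lower, and no cycle gene passed in either direction, where 8.03% of all genes were higher and 28.5% lower on both scales. In aged I/R, 1 transport gene was higher and none lower, 2 glycolysis genes were higher and 1 lower, and 2 cycle genes were lower, where 14.6% of all genes were higher and 10.6% lower on both scales.

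Slc16a3, the lactate exporter MCT4, was at 1.59, 5.52, 2.49 and 3.65 CPM, with log2 ratios after I/R of 1.80 (1.31 to 2.32) and 0.55 (0.22 to 0.90). Slc16a7, the high-affinity pyruvate and lactate carrier MCT2, was at 6.97, 2.77, 10.5 and 8.58 CPM, with -1.33 (-1.68 to -0.98) in young I/R. The other transport genes past 1.5-fold rest on few UMIs. Slc2a9 (50 and 21 UMIs in young sham and young I/R), Slc2a12 (84 and 61) and Slc2a13 (8 and 2) were lower in young I/R. Slc5a1 (9 and 42 UMIs in aged sham and aged I/R) was higher in aged I/R.

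Of the further glycolysis genes, Pfkfb4, another fructose 2,6-bisphosphate enzyme, was at 8.28, 3.10, 5.46 and 6.37 CPM and was lower in young I/R. Pfkfb3, the form induced by hypoxia, was at 5.53, 8.77, 8.03 and 7.97 CPM and was higher in young I/R at 0.66 (0.38 to 0.96), opposite to Pfkfb1, Pfkfb2 and Pfkfb4. Gpd1, which passes glycolytic electrons to the glycerol phosphate shuttle, was at 24.7, 38.6, 22.4 and 29.9 CPM and was higher in young I/R at 0.65 (0.51 to 0.78). In aged I/R the higher genes were Hk3 (1.32, 1.26, 1.28 and 2.25 CPM) and Pgm2 (3.79, 4.23, 2.97 and 5.32 CPM), and Eno1b was lower. The cycle genes lower in aged I/R were Sdhaf4, an assembly factor of succinate dehydrogenase, at 24.7, 20.1, 27.5 and 13.8 CPM, and Slc25a1, the citrate carrier, at 6.04, 5.70, 9.82 and 5.11 CPM.

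All 33 members are protein-coding genes in GENCODE on GRCm38. Exons of 10 of them (Hk1, Pfkm, Pfkfb1, Pfkfb2, Aldoa, Tpi1, Gapdh, Slc2a1, Idh3b and Mdh1) overlap an exon of a counted gene on the opposite strand, and Pfkm also overlaps 1 on its own strand. The strand setting of the counting is not given in the sources used here, and overlapping reads may be shared between those genes.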

How the data were processed

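Each of the 4 libraries is deposited as the authors' filtered matrix of counts, whole UMI counts per gene and barcode with no scaling. The submitters' processing notes name Cell Ranger 6.0.2 and mm10, and whether intronic reads were counted is not given in the sources used here. Members and lists were chosen with earlier results of these data known. UMIs were summed over all barcodes of a library and divided by its total to give CPM. Ratios carry exact conditional 95% intervals and shares exact binomial ones, both for counting error only. The ratio intervals, but not the share intervals, were run on simulated Poisson counts. Those intervals assume such counts, so the run checks the calculation and not the spread between animals. PCR duplicates are collapsed by UMI. Doublets were neither called nor removed, since all barcodes were summed. A member was named with its values where it passed 1.5-fold in 1 direction by CPM and after gene-wise scaling (median over genes with at least 50 UMIs in every library), or belonged to 1 of 9 pairs. Just-missed members, the other citric acid cycle and glycolysis genes and named wider-list values were added for completeness after their values were seen. Alternatives were gene-wise scaling, totals without Gm42418, Malat1 and 13 mitochondrial genes, barcodes with at least 200 genes, barcodes under 20% mitochondrial UMIs and a minimum of 400 UMIs. The choice of barcodes with 3 to 5% nuclear RNA, and the split of barcodes by nuclear RNA, were added after seeing the data. Python 3.11.15, numpy 2.4.6, scipy 1.17.1 and pandas 2.3.3 were used. The authors' clusters and integrated data were not used, and some genes of the wider list are not reported here.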

Additional observations from a re-analysis of the deposited data

Results flagged for a closer look

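After I/R 17 of the 33 members moved in opposite directions at the 2 ages, with counting intervals clear of 0 on the CPM and the relative scale. The difference was not tested, since each age has 1 library per condition. The same count was not taken over all genes. Most members are deeply counted, so that small ratios clear 0, as for Idh3g at 0.15 in young and -0.08 in aged ventricle. The count of 17 is thus not shown to be particular to these genes. In 3 of the 17 the young ratio was below 0 and the aged ratio above it. The log2 ratio in aged minus that in young ventricle was 2.21 for Hk2, 2.88 for Pfkfb2 and 1.13 for Eno1. The summed nuclear RNAs were likewise lower in young I/R and higher in aged I/R than in sham, and a link was not tested. In the other 14 the young ratio was above 0 and the aged ratio below it. Among the glycolysis genes this difference was -0.50 for Gpi1, -0.27 for Tpi1, -0.84 for Pgk1, -0.69 for Pgam1 and -0.83 for Pgam2. It was -0.24 for Eno3, -0.49 for Pkm, -0.48 for Ldha and -0.44 for Ldhb. Among the citric acid cycle genes it was -0.47 for Idh2, -0.23 for Idh3g, -0.33 for Ogdh, -0.69 for Mdh1 and -0.36 for Mdh2. In barcodes with 3 to 5% nuclear RNA the intervals were again clear of 0 in opposite directions on both scales for Hk2 (1.89), Pfkfb2 (1.79) and Pgk1 (-0.39). They were not for Eno1 and the other 13. By the ratios alone, Gpi1, Pgk1, Pgam1 and Ldha of the 14 kept opposite directions there, and the other 10 did not. The difference itself turned to 0.18 for Tpi1, 0.18 for Eno3, 0.085 for Ldhb, 0.18 for Idh3g, 0.0031 for Ogdh and 0.10 for Mdh2. It stayed below 0 for the rest of the 14.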

How the results depend on the processing

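No paired analysis was possible because each condition has 1 library, and for the same reason no replicate could be left out. Raising the minimum to 400 UMIs removed no member, so it could not alter the members' ratios, medians or counts. Keeping barcodes under 20% mitochondrial UMIs left every median and count as it was within counting error or 1.5 times. That cut kept most barcodes, 91486 of 92200 in young sham and 92455 of 100342 in aged sham, so it could alter little. Under no alternative did a member past 1.5-fold by CPM change direction, but smaller ratios often did. In barcodes with 3 to 5% nuclear RNA, 16 of the 33 members changed sign in young I/R and 2 in aged I/R. There 10 changed sign in aged over young sham and 8 in aged over young I/R. With gene-wise scaling these counts were 8, 2, 3 and 10 in the same order. Medians below are of log2 ratios in the order young I/R, aged I/R, aged over young sham, aged over young I/R. With gene-wise scaling the glycolysis medians were 0.54, -0.25, 0.27 and -0.42 and the cycle medians 0.46, 0.082, -0.0026 and -0.41. The transport median was 0.75 in young I/R and -0.51 in aged over young I/R. Members past 1.5-fold became 13 higher in young I/R, 2 higher in aged over young sham, and 1 higher and 11 lower in aged over young I/R. With totals without Gm42418, Malat1 and mitochondrial genes the glycolysis medians were 0.25, -0.25, 0.21 and -0.20. The cycle medians were 0.18 in young I/R, 0.074 in aged I/R and -0.19 in aged over young I/R, where transport was at -0.29 and 3 members were lower. With at least 200 genes the young I/R medians were 0.21 for glycolysis and 0.21 for the cycle, and in aged over young sham the cycle median was -0.0066 and 5 members were lower. This cut fell unevenly on the libraries. It kept 26140 of 92200 barcodes in young sham and 56835 of 102883 in young I/R. In aged sham it kept 68121 of 100342 and in aged I/R 89990 of 91124. In barcodes with 3 to 5% nuclear RNA, chosen after seeing the data, the young I/R medians were -0.21 and -0.18 with 1 member higher and 2 lower, and the aged I/R medians -0.069 and 0.23 with 5 higher and 1 lower. In aged over young sham they were -0.045 and -0.40 with 0 higher, and in aged over young I/R the cycle median was 0.082 with 0 lower. The gene-wise values differ by a constant per comparison, and the cause of the other shifts was not tested. Shares of all genes past 1.5-fold are given above for CPM and gene-wise scaling over all barcodes. They were not taken with the other totals or barcodes, so the member counts there cannot be set against a share of all genes. Of the isoform pairs, 3 moved the same way after I/R at both ages with at least 200 genes or under 20% mitochondrial UMIs, and 4 among all genes of the step or with 3 to 5% nuclear RNA. Among the members depth limits Slc2a1 most, with 134 UMIs in young sham. Some genes named from the wider list had fewer, such as Slc2a13 with 8 UMIs in young sham.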
